A study of Rattus norvegicus with 16 samples.

Results

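RT1 is the major histocompatibility complex (MHC) of the rat, and 5 of its class I genes, RT1-CE16, RT1-A, RT1-A3, RT1-CE5 and RT1-T24-4, were followed in lung tissue across 4 groups of rats. The genes were found by their symbol in the array's annotation, which gave 10 probe sets of the 15866 on the array that are not controls. RT1-CE5 had 5 probe sets, RT1-A3 had 2, and RT1-CE16, RT1-A and RT1-T24-4 had 1 each. The genes were chosen by earlier results on these same arrays, most likely by their differences between the strains. Their strain differences below are therefore a description with no test. The comparisons of sulfur dioxide (SO2) with air were tested.

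The study asked how the spontaneously hypertensive (SH) rat, inbred for high blood pressure, and the outbred Sprague Dawley (SD) rat respond to SO2, an irritant gas, in the airways. Total RNA from lung, labelled with biotin, was hybridised to 16 arrays, 1 for each rat. The groups were SH rats in SO2, SH rats in air, SD rats in SO2 and SD rats in air, with 4 biological replicates in each. Dose, length of exposure and age are not stated in the labels used here, and no group carried a transgene or a drug by its labels. Replicates are numbered from 1 to 4 within a group, and the number pairs no rats across groups.

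Class I molecules consist of a heavy chain and beta-2-microglobulin, and they show peptides from inside the cell to cytotoxic T cells. Nearly all cells with a nucleus carry them, and interferons raise their transcription. In the rat, the RT1-A region holds the classical class I heavy chain genes, which present peptides to T cells, while most genes of the RT1-CE and RT1-T24 groups are counted among the nonclassical class I genes, which lie in other blocks of the complex. Rat strains differ in which class I genes they carry and in the sequence of each gene, and an inbred strain has the same RT1 haplotype in every animal while an outbred stock can hold several.

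The RefSeq table of assembly GRCr8 placed the 4 members that it holds on chromosome 20. The 250 bases before the annotated start of each of these genes are shown because class I promoters have a known control region, with a site for NF-kappa B and a site for interferon-regulated factors. In each sequence the capitals mark the NF-kappa B core GGGATTCCC and the interferon response core TTTCACTTC, where these letters are present on the strand of the gene. The windows are chr20:4849201-4849450 on the plus strand for RT1-A3, chr20:3265444-3265693 on the minus strand for RT1-CE16, chr20:3484091-3484340 on the minus strand for RT1-CE5 and chr20:2689083-2689332 on the plus strand for RT1-T24-4.
RT1-A3: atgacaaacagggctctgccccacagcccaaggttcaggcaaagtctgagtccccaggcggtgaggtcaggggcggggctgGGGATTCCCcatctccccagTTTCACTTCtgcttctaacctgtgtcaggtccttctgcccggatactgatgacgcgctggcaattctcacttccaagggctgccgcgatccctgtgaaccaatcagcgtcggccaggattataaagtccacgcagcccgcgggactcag
RT1-CE16: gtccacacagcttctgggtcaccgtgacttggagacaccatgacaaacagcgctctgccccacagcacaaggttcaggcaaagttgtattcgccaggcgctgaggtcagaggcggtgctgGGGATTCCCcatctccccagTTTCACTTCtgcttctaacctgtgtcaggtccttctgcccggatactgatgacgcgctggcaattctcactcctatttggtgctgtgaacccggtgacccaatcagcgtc
RT1-CE5: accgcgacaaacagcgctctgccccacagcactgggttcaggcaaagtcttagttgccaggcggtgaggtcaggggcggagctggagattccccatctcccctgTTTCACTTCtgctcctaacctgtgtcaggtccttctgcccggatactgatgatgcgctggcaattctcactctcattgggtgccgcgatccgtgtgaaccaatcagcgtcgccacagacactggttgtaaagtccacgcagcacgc
RT1-T24-4: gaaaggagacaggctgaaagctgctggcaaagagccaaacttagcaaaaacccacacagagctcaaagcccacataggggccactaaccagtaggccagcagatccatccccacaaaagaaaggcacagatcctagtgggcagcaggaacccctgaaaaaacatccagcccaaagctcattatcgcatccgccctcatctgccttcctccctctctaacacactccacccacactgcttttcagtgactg

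RT1-A3, RT1-CE16 and RT1-CE5 had closely related sequences before their starts. RT1-A3 and RT1-CE16 were identical at 190 of 211 aligned bases (90.0%), RT1-A3 and RT1-CE5 at 217 of 241 (90.0%), and RT1-CE16 and RT1-CE5 at 190 of 214 (88.8%). GGGATTCCC was found in RT1-A3 and RT1-CE16, and TTTCACTTC was found in RT1-A3, RT1-CE16 and RT1-CE5. The window of RT1-T24-4 held neither, nor the short motifs TGACG, the core of a cAMP response element, and CCAAT. Searched on both strands of the 300 bases around every annotated start, GGGATTCCC was present in 0.365% and TTTCACTTC in 0.469% of 33469 promoters, TGACG in 21.2% and CCAAT in 37.5%. Of the 33 RT1 promoters in the table outside the class II list, 8 held GGGATTCCC, 11 held TTTCACTTC, 9 held TGACG and 22 held CCAAT. In the members, RT1-A3 and RT1-CE16 held TGACG, and RT1-A3, RT1-CE16 and RT1-CE5 held CCAAT. These are letters of the reference assembly, not of the rats on the arrays.

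Signals are linear intensities as deposited, and differences are taken on log2(signal + 16) with their standard error (SE). Probe sets were tested if their mean signal was above the lowest 30%, which left 11106. Of the 10 member probe sets, 8 were above that limit. The other two were RT1-CE5 1388254_a_at, with signals from 5.4 to 32.2, and RT1-A3 1388256_at, with signals from 2.5 to 129, and neither was tested. The signal of a probe set depends on its own probes, so levels are compared between groups for a probe set and never between probe sets. Class I genes are near copies of each other, and the endings _x_at and _s_at mark probe sets whose probes can also match other transcripts, so the naming of those signals is uncertain. A further 3 probe sets list a member together with other RT1 genes and are not counted as members.

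The arrays had median signals from 250.2 to 281.8, and correlations between arrays ran from 0.933 to 0.971 with 0 identical pairs of 120. The strain of each air array was checked on 68 probe sets, members left out, whose SO2 arrays separated the strains. On a scale where the SH SO2 mean is 1 and the SD SO2 mean is 0, the SH air arrays had median positions from 0.669 to 0.913. SD air replicates 1, 3 and 4 stood at 0.0878, 0.131 and 0.241, but SD air replicate 2 stood at 0.646. For Terf2ip, a telomere protein gene that separates the strains here, SH air rats had signals from 425 to 733, while SD air replicate 2 had 694 and the other SD air rats had 1982, 2180.0 and 2363. The array labelled SD air replicate 2 therefore went against its label by these measures. Values without it are given beside the results on the members that use it. Markers of lung tissue were bright in all groups, with summed signals of 8 measured genes from 123593 to 142994 in SH SO2 rats, 128746 to 133325 in SH air rats, 123207 to 179292 in SD SO2 rats and 128919 to 137233 in SD air rats.

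RT1-CE16, a class I gene of the CE block measured by 1370463_x_at, was high in every SH rat and varied widely among SD rats. Its signals were 1554, 2742, 2108 and 2389 in SH SO2 rats, and 1961, 2230.5, 2747 and 2446 in SH air rats. They were 652, 64.7, 103 and 346 in SD SO2 rats, and 552, 2603, 102 and 159.6 in SD air rats. SH and SD rats did not overlap in SO2, and in air they overlapped only through SD air replicate 2, which was as bright as the SH rats. The difference between SH and SD rats was 3.30 (SE 0.70) on the log2 scale in SO2, a 9.88-fold difference, and 2.49 (SE 0.70) in air, 5.60-fold. Without SD air replicate 2 the difference in air was 3.37 (SE 0.55), 10.3-fold.

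RT1-A, by its symbol a gene of the RT1-A region and measured by 1370429_at, ran the other way. Its signals were 127, 158, 139 and 101 in SH SO2 rats, and 73, 255, 139 and 216 in SH air rats. In SD SO2 rats they were 365, 1696, 2065 and 1387, and in SD air rats 841, 151, 2154 and 1349. The strains did not overlap in SO2, and the overlap in air came from SD air replicate 2, which lay within the range of the SH rats. The difference between SH and SD rats was -3.01 (SE 0.59) in SO2 and -2.23 (SE 0.59) in air, or -2.99 in air without SD air replicate 2, which is 8.05-fold, 4.70-fold and 7.95-fold lower in SH rats. Of the probe sets that list several genes, 1370428_x_at, which lists RT1-A3 and RT1-A2, had a like pattern, with signals of 251, 231, 153 and 217 in SH SO2 rats and 159, 724, 111 and 334 in SH air rats. Its signals were 2650.1, 5336, 7765 and 3215 in SD SO2 rats and 1821, 129, 8179 and 7945 in SD air rats. Because it carries more than 1 symbol, its signal cannot be given to either gene.

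RT1-A3, another gene of the RT1-A region, had smaller strain differences on 1371213_at. Its signals were 552, 781, 806 and 568 in SH SO2 rats, and 546, 678, 607 and 648 in SH air rats. They were 297, 228, 164 and 352 in SD SO2 rats, and 251, 540.0, 308 and 386 in SD air rats. SH and SD rats did not overlap in either exposure, although SD air replicate 2, at 540.0, came within a few units of the lowest SH air rat. The difference was 1.35 (SE 0.22) in SO2, 2.56-fold, and 0.77 (SE 0.22) in air, or 0.96 without SD air replicate 2.

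RT1-T24-4, a class I gene of the T24 group, was lower in SH rats on 1389734_x_at. Its signals were 992, 1003, 1164 and 1283 in SH SO2 rats, and 1446, 1193, 1157 and 1209 in SH air rats. SD SO2 rats had 3351, 5731, 2641 and 5516, and SD air rats had 4617, 1818, 3937 and 3346. No SD rat was as low as any SH rat in the same exposure, and SD air replicate 2 was the lowest of the 8 SD rats. The difference was -1.87 (SE 0.24) in SO2, 3.67-fold lower in SH rats, and -1.37 (SE 0.24) in air, 2.58-fold lower, or -1.64 and 3.13-fold lower in air without SD air replicate 2.

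RT1-CE5 had 4 probe sets above the limit, and they did not give the same strain difference. On the brightest, 1370972_x_at, the signals were 1159.8, 1173, 1497 and 1215 in SH SO2 rats, and 976, 1182, 883 and 1099.5 in SH air rats. SD SO2 rats had 205, 726, 846 and 359.7 on it, and SD air rats had 348, 987, 756 and 740.2. SH rats were above SD rats on every SO2 array, by 1.40 (SE 0.33) on the log2 scale. In air they overlapped only through SD air replicate 2, at 987, while the other SD air rats were below the lowest SH air rat, at 883. The difference in air was 0.62 (SE 0.33), or 0.81 without SD air replicate 2.

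The 3 other RT1-CE5 probe sets overlapped between the strains in both exposures. On 1371209_at the signals were 465, 662, 703 and 436 in SH SO2 rats, and 386, 594, 572 and 492 in SH air rats. SD SO2 rats had 2.3, 705, 824 and 378 on it, and SD air rats had 406, 467, 841 and 1056. SD SO2 replicate 1 was far below all other rats here, at a signal below 17, the smallest value that the 10th percentile of an array took. The same rat was lowest of all 16 on 1388255_x_at, where the signals were 382, 962, 491 and 350.3 in SH SO2 rats, 306, 456, 414 and 548 in SH air rats, 35, 771, 1020.0 and 298 in SD SO2 rats, and 332, 450.2, 922 and 873 in SD air rats. It was lowest again on 1371210_s_at, where SH rats had 158 to 407, and SD rats had 32.7 in that rat and 142 to 492 in the others. On 1371209_at, 1388255_x_at and 1371210_s_at the strain differences were 1.15 (SE 0.76), 0.62 (SE 0.62) and 0.51 (SE 0.49) in SO2. In air they were -0.34, -0.47 and -0.066, and without SD air replicate 2 they were -0.49, -0.60 and -0.33. Without SD SO2 replicate 1 the 3 differences in SO2 were -0.12, -0.29 and -0.14, so their direction rested on that rat. The probe sets 1371209_at and 1388255_x_at were built from the same source sequence and are not independent.

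**Figure D1:**
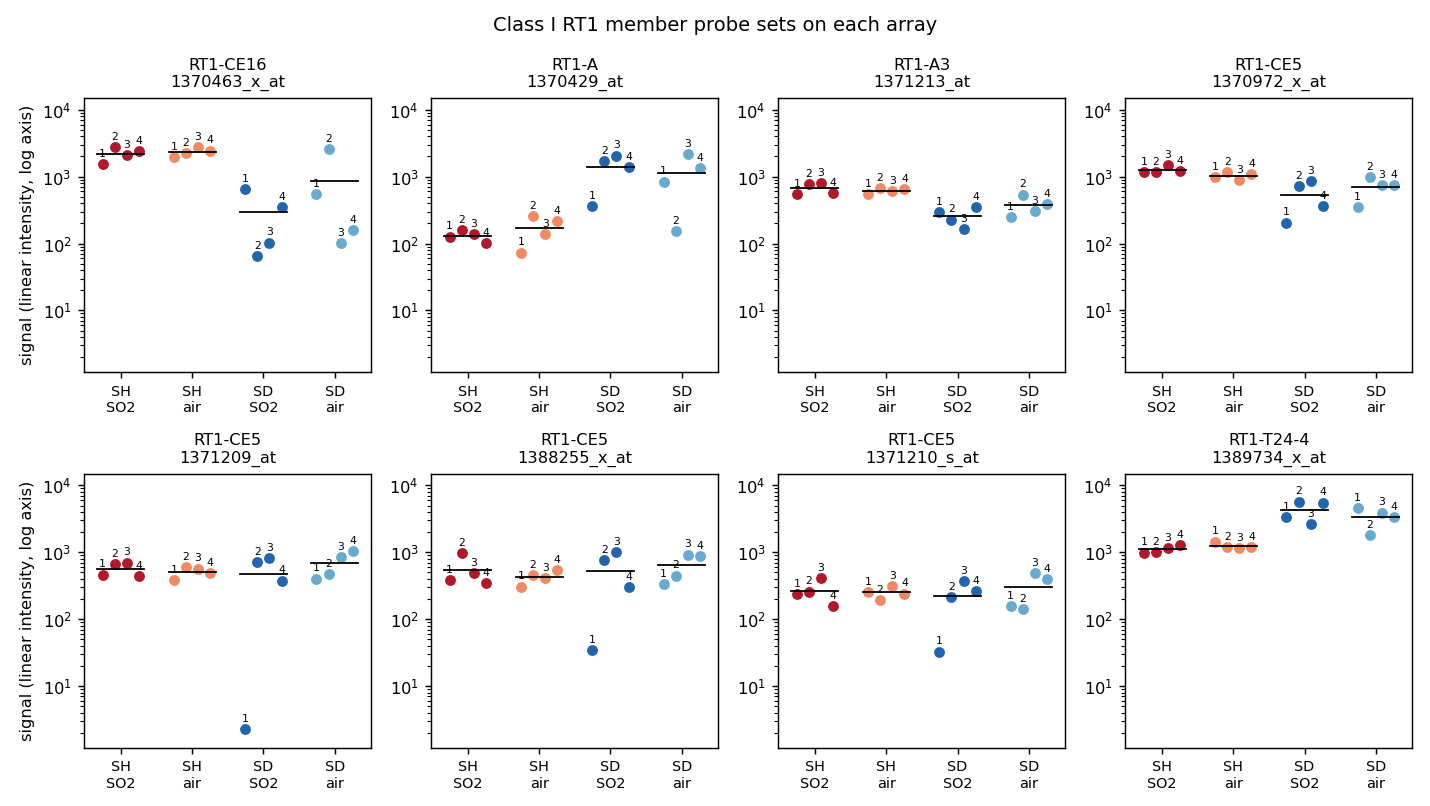
Signal of the 8 tested member probe sets on each array, on a log axis of linear intensity, with the replicate number over each point and the group mean of the linear signals as a line. SH rats lie close together on RT1-CE16, from 1554 to 2747, while SD rats run from 64.7 to 2603, and SD SO2 replicate 1 drops to 2.3 on RT1-CE5 1371209_at.

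As group means, RT1-CE16 had 2199 ± 502 in SH SO2 rats and 2346 ± 333 in SH air rats, and 291 ± 271 in SD SO2 rats and 854 ± 1183 in SD air rats (standard deviation, n = 4 for these and the following means). RT1-A had 131 ± 23.9 in SH SO2 rats and 171 ± 80.9 in SH air rats, and 1378 ± 730.0 in SD SO2 rats and 1124 ± 844 in SD air rats. RT1-A3 had 677 ± 135 in SH SO2 rats and 619.7 ± 57.2 in SH air rats, and 260.5 ± 81.8 in SD SO2 rats and 371 ± 125 in SD air rats. RT1-T24-4 had 1111 ± 139 in SH SO2 rats and 1252 ± 132 in SH air rats, and 4310.0 ± 1547 in SD SO2 rats and 3429.6 ± 1193 in SD air rats. In order of level, both SH groups stood above both SD groups for RT1-CE16 and RT1-A3 and below them for RT1-A and RT1-T24-4. The SD air means without replicate 2 were 271 ± 245 for RT1-CE16, 1448 ± 662 for RT1-A, 315 ± 67.6 for RT1-A3 and 3966.6 ± 636 for RT1-T24-4 (n = 3), which left both SD groups on the same side of both SH groups. The SO2 and air groups of the same strain were neighbours in each order, and their arrays overlapped.

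Of the 8 tested probe sets, 3 were higher in every SH rat than in any SD rat in SO2, and 2 were lower, while the arrays of the strains did not overlap for 5.58% of all probe sets tested. In air the arrays did not overlap for 1 member probe set higher and 1 lower in SH rats, and for 4.03% of all probe sets. Without SD air replicate 2 these were 3 and 2 member probe sets, and 11.4% of all. Since the strain differences most likely chose the genes, nothing is read from these counts. Each array measures whole lung, in which fewer cells of a type and less RNA per cell cannot be told apart. For genes that differ in sequence between haplotypes, less RNA and a poorer match of the probes cannot be told apart either.

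The 8 tested member probe sets varied more from rat to rat in the SD stock than in SH rats. The standard deviation of log2 values within groups, pooled over both exposures, was 0.285 in SH rats and 1.74 in SD rats for RT1-CE16, and 0.535 in SH rats and 1.38 in SD rats for RT1-A. On the RT1-CE5 probe sets 1370972_x_at, 1371209_at, 1388255_x_at and 1371210_s_at it was 0.177, 0.308, 0.513 and 0.420 in SH rats, and 0.783, 1.88, 1.47 and 1.12 in SD rats. RT1-A3 had 0.222 in SH rats and 0.451 in SD rats, and RT1-T24-4 had 0.161 in SH rats and 0.566 in SD rats. Over all probe sets tested the medians were 0.217 in SH rats and 0.262 in SD rats, with a median ratio of SD to SH rats of 1.19, while the member ratios ran from 2.03 to 6.12. Without SD air replicate 2 the SD value was 1.32 for RT1-CE16 and 0.956 for RT1-A, and it was 2.05 for RT1-CE5 1371209_at, with member ratios from 1.78 to 6.66. The largest ratio, on 1371209_at, leaned on SD SO2 replicate 1, at 2.3 against 378 to 1056 in the other SD rats. That rat was the lowest SD rat on all 4 tested RT1-CE5 probe sets, and spreads without it were not computed. Not every class I probe set had this pattern. RT1-CE10, which is no member, had 0.435 in SH rats and 0.396 in SD rats, a ratio of 0.909, and 1371267_at, which lists several RT1 genes, had a ratio of 1.08. These spreads are a description with no test.

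**Figure D2:**
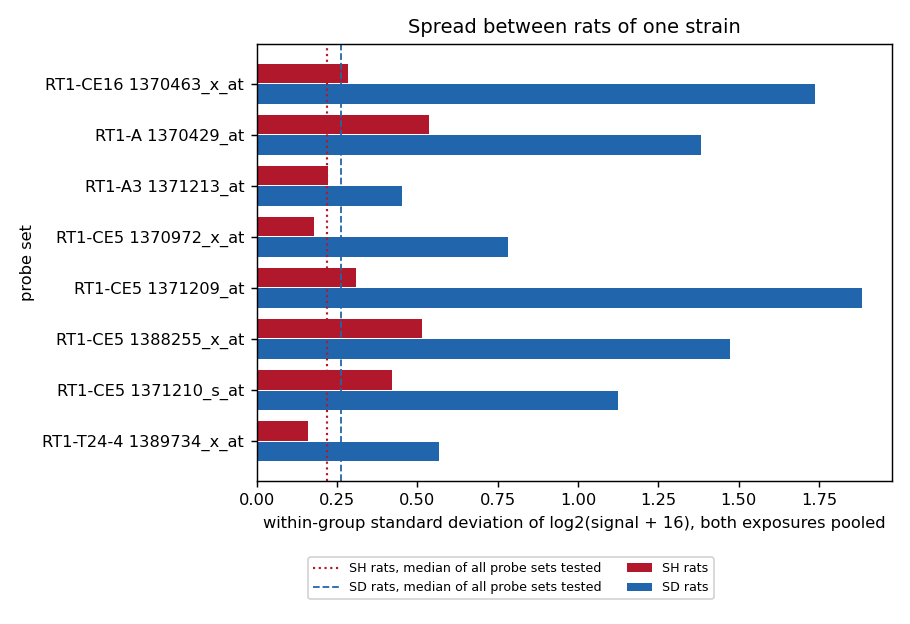
Standard deviation of log2(signal + 16) within groups, pooled over SO2 and air, for each tested member probe set, with SH rats in the upper bar and SD rats in the lower bar of each pair. Lines mark the medians over all probe sets tested, 0.217 in SH rats and 0.262 in SD rats, and every SD bar is longer than its SH bar.

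Within the SD stock, RT1-CE16 and RT1-A moved in opposite directions from rat to rat. SD air replicate 2 had the highest RT1-CE16, at 2603, and the lowest RT1-A, at 151. SD SO2 replicate 1 was next, with 652 for RT1-CE16 and 365 for RT1-A, followed by SD air replicate 1, with 552 and 841. The rats with the lowest RT1-CE16, SD SO2 replicates 2 and 3 and SD air replicate 3, at 64.7, 103 and 102, had RT1-A signals of 1696, 2065 and 2154. Over the 8 SD arrays Pearson's r was -0.94 (exact permutation p = 0.00040, two-sided, adjusted p = 0.0059 over the 28 pairs of member probe sets) and Spearman's rho was -0.90 (exact permutation p = 0.0046, adjusted p = 0.064). Without the 2 arrays farthest from the median of RT1-CE16 r was -0.89, and without SD air replicate 2 it was -0.85 over 7 arrays. The p-values of this pair and of the pairs below include SD air replicate 2. That array had SH-like values of both genes, which differ between the strains in opposite directions, and so lowers r. The pairs were also chosen after their values were seen, so these p-values are a description. In the 8 SH arrays r was 0.30.

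Of the 6 pairs of RT1-CE5 probe sets, 4 passed among the SD rats, whose lowest signals were in SD SO2 replicate 1. For 1371209_at and 1388255_x_at r was 0.97 (exact permutation p = 0.00042, two-sided, adjusted p = 0.0059) and rho 0.90 (adjusted p = 0.064), and without the 2 arrays farthest from the median of 1371209_at r was 0.99. For 1371209_at and 1371210_s_at r was 0.92 (exact permutation, adjusted p = 0.032), and it was 0.72 without the 2 farthest arrays. For 1370972_x_at and 1388255_x_at r was 0.87 (exact permutation, adjusted p = 0.032) and 0.62 without the 2 farthest. For 1388255_x_at and 1371210_s_at r was 0.92 (exact permutation, adjusted p = 0.032) and 0.88 without them. The other two pairs did not pass, 1370972_x_at with 1371209_at at r of 0.81 (exact permutation, adjusted p = 0.053) and with 1371210_s_at at 0.69 (exact permutation, adjusted p = 0.168), the second being -0.10 without the 2 farthest. The 6 values of r ran from 0.87 to 0.97 without SD air replicate 2, and without SD SO2 replicate 1 from 0.24 to 0.95. Of the 28 pairs, 5 passed by r and 0 by rho after adjustment. Leaving out SD air replicate 2 moved other pairs further. RT1-CE16 and RT1-CE5 1370972_x_at then had r of -0.93, in place of -0.24 over all 8 SD arrays. RT1-A and the 4 RT1-CE5 probe sets had r from 0.90 to 0.94, in place of 0.18 to 0.73. These values over 7 arrays are a description with no test. No pair with RT1-T24-4 passed, with r of 0.60 against RT1-A, which was 0.07 without SD air replicate 2, and 0.04 against RT1-CE5 1371209_at. Near copies can share probes, and probe sets of the same gene measure overlapping RNA, so these pairs do not stand for separate genes.

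**Figure D3:**
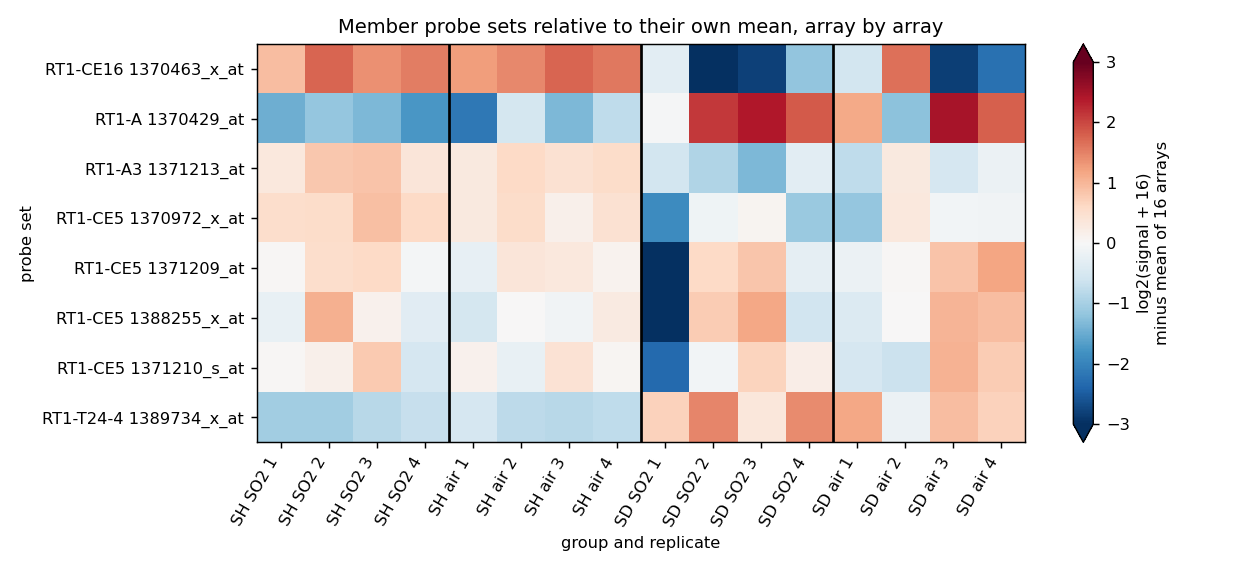
Log2(signal + 16) of each tested member probe set minus its own mean over the 16 arrays, in columns by group and replicate, where values beyond 3 in either direction take the end colour. The SH columns are alike, the SD columns differ from each other, and SD air replicate 2 has the RT1-CE16 and RT1-A colours of the SH columns.

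The genes most like each member were found over the 16 arrays by Pearson's r of log2 values, among genes with a single symbol. For RT1-CE16 they were Clpb (r = 0.95), Them5 (0.91) and Cxcl14 (0.91), and for RT1-A they were Tpm4 (0.92), Ythdf2 (0.90) and Defb4 (0.88). For RT1-A3 they were Ckmt1 (0.94), Cxcl14 (0.91) and Inmt (0.91), and for RT1-T24-4 they were Ythdf2 (0.94), Cd300c2 (0.94) and Defb4 (0.93). For the brightest RT1-CE5 probe set they were RT1-T24-3 (0.89), Cst6 (0.84) and Cxcr4 (0.83). Of these, RT1-T24-3 alone lies on chromosome 20. The arrays fall into strain sets, so a gene that differs between the strains for any reason comes out as alike.

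No member passed the test for SO2 against air in SH rats. The brightest RT1-CE5 probe set averaged 1261 ± 159 in SH SO2 rats and 1035 ± 132 in SH air rats (standard deviation, n = 4 each). Of the 8 probe sets, 5 had a difference above 0 and 3 below, with a median of 0.063 on the log2 scale against 0.017 over all probe sets. The differences were -0.11 (SE 0.70) for RT1-CE16, -0.23 (SE 0.59) for RT1-A, 0.11 (SE 0.22) for RT1-A3 and -0.17 (SE 0.24) for RT1-T24-4, and from 0.02 to 0.28 for RT1-CE5. Adjusted p-values ran from 0.967 to 0.997. The test called 0 member probe sets and 0% of all probe sets, while 531 of all had an unadjusted p under 0.05.

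That fit shares its spread over all 4 groups, and the wide spread of SD rats widens the intervals of the SH comparison. When only the 8 SH arrays were fitted, the 95% interval was -0.45 to 0.23 for RT1-CE16, -0.93 to 0.46 for RT1-A, -0.20 to 0.42 for RT1-A3 and -0.43 to 0.08 for RT1-T24-4. For RT1-CE5 1370972_x_at it was 0.02 to 0.55 around 0.28, with an unadjusted p of 0.039 and an adjusted p of 0.674. In SH rats these data are thus compatible with changes within those limits, and a p that misses the threshold does not show that the levels were equal.

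No member passed for SO2 against air in SD rats either. RT1-A3 averaged 260.5 ± 81.8 in SD SO2 rats and 371 ± 125 in SD air rats, a difference of -0.48 (SE 0.22) with the smallest p among the members, 0.043 before and 0.589 after adjustment. Without SD air replicate 2 it was -0.29. The SEs here also share their spread with SH rats, which varied less on every member, as 0.222 against 0.451 in SD rats for RT1-A3. These SEs and p-values therefore understate the uncertainty in SD rats. RT1-CE16 differed by -0.93 (SE 0.70) and RT1-A by 0.54 (SE 0.59), and without SD air replicate 2 these were -0.05 and -0.22, so that the direction for RT1-A turned. The RT1-CE5 probe sets differed by -0.50, -1.36, -0.84 and -0.56 for 1370972_x_at, 1371209_at, 1388255_x_at and 1371210_s_at. Without SD SO2 replicate 1 they differed by -0.13, -0.085, 0.066 and 0.091, and without SD air replicate 2 by -0.31, -1.50, -0.97 and -0.82. RT1-T24-4 differed by 0.33 (SE 0.24), and by 0.057 without SD air replicate 2. Of the 8 probe sets, 2 were above 0 and 6 below, with a median of -0.53 against 0.017 over all probe sets, and adjusted p-values ran from 0.589 to 0.857. Of the 8, 1 was above 0 and 7 below without SD air replicate 2, with a median of -0.30. The test called 0 members and 0% of all probe sets, with 921 of all at an unadjusted p under 0.05.

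**Figure D4:**
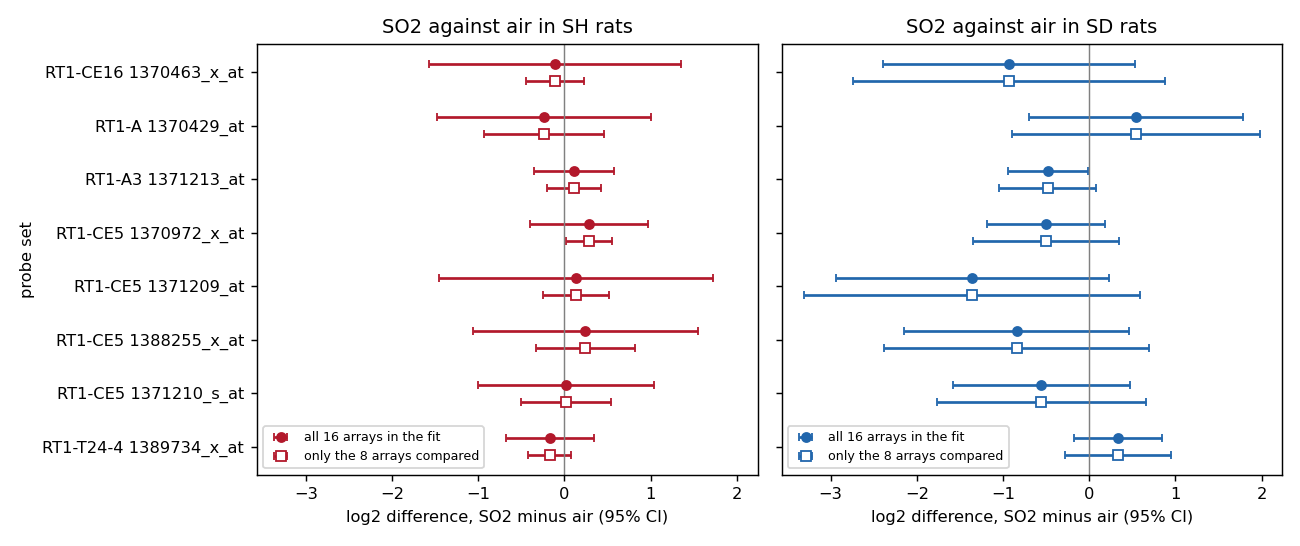
Difference between SO2 and air on the log2 scale, with its 95% confidence interval, for each tested member probe set in SH rats (left) and SD rats (right). Filled circles come from the fit of all 16 arrays and open squares from the 8 arrays compared, and the SH intervals narrow in the second fit, for RT1-CE16 to -0.45 to 0.23.

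The response to SO2 was not shown to differ between the strains for any member. The difference of the SO2 effects, SH minus SD, ran from -0.78 for RT1-A to 1.49 for RT1-CE5 1371209_at, with 6 probe sets above 0 and 2 below. Both ends rested on an array: RT1-A was at -0.019 without SD air replicate 2, and 1371209_at at 0.22 without SD SO2 replicate 1. For RT1-CE16 it was 0.82 (SE 0.99) and for RT1-A3 0.59 (SE 0.31). Adjusted p-values were from 0.984 to 0.993, and without SD air replicate 2 the smallest was 0.889. The test called 0 members and 0% of all probe sets, with 516 at an unadjusted p under 0.05. For RT1-CE16 the value without SD air replicate 2 was -0.06.

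Of the other class I RT1 genes, 7 were on the array and 5 were tested, and none passed in any of the 5 comparisons. RT1-T24-3 came nearest, with signals of 2210.3, 2590.5, 3145 and 2406 in SH SO2 rats and 196, 1696, 2141 and 1090.2 in SD SO2 rats, a difference of 1.42 (SE 0.46, adjusted p = 0.203). Its lowest array was SD SO2 replicate 1, as for RT1-CE5, and without it the difference was 0.69 (adjusted p = 0.307). RT1-CE12 had 4737 ± 233 in SH SO2 rats and 4175 ± 2090.0 in SD SO2 rats, with the spread among rats, 0.150 in SH and 0.839 in SD, again wider in the SD stock. RT1-M3-1, which in the mouse has a counterpart that presents formylated peptides, had 1138 ± 229 in SH SO2 rats and 828 ± 176 in SD SO2 rats (difference 0.46, adjusted p = 0.298). The 4 probe sets of RT1-S3 differed between the strains by -0.29 to 0.21, and had ratios of spread from 1.13 to 2.58.

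Beta-2-microglobulin, the light chain that every class I heavy chain needs, was level across the groups. B2m on 1367595_s_at averaged 17233 ± 2543 in SH SO2 rats, 17300.2 ± 933 in SH air rats, 17375 ± 2099 in SD SO2 rats and 17055 ± 1404 in SD air rats (standard deviation, n = 4 each). On this probe set the differences lay between -0.02 and 0.02 on the log2 scale in the strain and SO2 comparisons, with SE 0.11, and at most 0.079 without SD air replicate 2. On the dimmer 1371440_at the difference for SO2 against air was 0.083 in SH rats and 0.099 in SD rats, or 0.117 in SD rats without SD air replicate 2. Between the strains it was 0.010 in air and -0.0059 in SO2, and no comparison passed. The standard deviation of log2 values on 1367595_s_at was 0.212 in SH SO2 rats and 0.077 in SH air rats. It was 0.175 in SD SO2 rats and 0.115 in SD air rats, where RT1-CE16 had 1.41 and 2.01. Whether B2m moved with RT1-CE16 or RT1-A from rat to rat was not tested.

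Among 12 tested genes that make peptides and load them onto class I molecules, 1 passed, between the strains in SO2, where 0.819% of all probe sets tested passed. This list and the gene lists below were chosen with earlier results of these data known, so nothing is read from such counts. Tapbp, which encodes tapasin, the protein that holds class I molecules at the peptide transporter, was higher in SH than in SD rats in SO2, with 801.6 ± 66.9 in SH SO2 rats and 535.4 ± 82.8 in SD SO2 rats, a difference of 0.58 (SE 0.12, adjusted p = 0.0226). In air its mean signal was 803.7 ± 52.2 for SH rats, against 720.5 ± 52.4 for SD rats, a difference of 0.15 (adjusted p = 0.891), or 0.13 without SD air replicate 2. With single arrays left out the call in SO2 held in 12 of 16 fits. It did not without SH SO2 replicates 2 or 3 or SD SO2 replicates 2 or 4, with adjusted p-values of 0.0986, 0.0570, 0.0661 and 0.0626. Tap2, a subunit of the transporter, had 128, 182, 103 and 391 in SH SO2 rats and 479.7, 459.9, 488 and 427 in SH air rats. These groups did not overlap, and the difference of -1.31 (SE 0.31) had an adjusted p of 0.406. The share of all probe sets without overlap was not computed for this comparison, so nothing is read from the lack of overlap. Tap1, the other subunit, on 1388149_at differed by -0.38 for SO2 in SH rats (adjusted p = 0.950) and by 0.37 in SD rats (adjusted p = 0.589).

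Of 15 tested regulators of class I genes, 2 passed between the strains in SO2, beside the 0.819% of all probe sets. Irf7, an interferon-regulated transcription factor, was higher in SH rats, at 2236 ± 693 in SH SO2 rats and 1089.6 ± 324 in SD SO2 rats (1.01, SE 0.23, adjusted p = 0.0363). Ifngr1, a chain of the interferon gamma receptor, was lower in SH rats, at 1938 ± 54.7 in SH SO2 rats and 3008 ± 361 in SD SO2 rats (-0.62, SE 0.11, adjusted p = 0.00688). With each of the 16 arrays left out in turn, Ifngr1 passed in 16 fits and Irf7 in 9. The call for Irf7 was lost without SH SO2 replicates 2 or 3, SH air replicates 2 or 4, or SD SO2 replicates 1, 2 or 4, with adjusted p-values from 0.0512 to 0.147. Ifnar1, a chain of the type I interferon receptor, passed as well in SO2 without SD air replicate 2, on 1 of its 4 tested probe sets (0.65, adjusted p = 0.0268), beside 1.04% of all probe sets, and it passed in none of the other 15 fits. In air with all arrays no regulator passed, as did 0% of all probe sets, while 713 of the 11106 had an unadjusted p under 0.05, and without SD air replicate 2, which left 3 SD air rats, 2 did, beside 0.81% of all. Ifnar1 was then higher in SH air rats, at 802.1 ± 64.4, than in SD air rats, at 452.2 ± 32.5 (0.80, SE 0.15, adjusted p = 0.0128), and Ifngr1 was lower, at 2034 ± 244 in SH air rats and 3024 ± 177 in SD air rats (-0.58, SE 0.12, adjusted p = 0.0240). This Ifnar1 call was again on 1 of its 4 tested probe sets. The others differed by -0.028 to 0.68 in the same fit, with adjusted p-values from 0.166 to 0.983. In the SO2 comparisons and the interaction 0 regulators passed.

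The lists of class II genes with the invariant chain, class I-like genes outside RT1, class I receptors and other genes of the MHC region had 0 of 8, 0 of 6, 0 of 3 and 0 of 59 tested genes passing in each of the 5 comparisons. RT1-Bb, a class II chain, varied more widely than the class I members, with an SE of 1.46 against at most 0.76 for them. It varied widely among SH air rats as well. Its signals ran from 15.6 to 127 in SH SO2 rats, 29.4 to 1107.5 in SH air rats, 11.9 to 2684.5 in SD SO2 rats and 17.7 to 2609.7 in SD air rats. For the 59 genes of the MHC region the median strain difference was -0.06 in SO2 and -0.05 in air, beside 0.00 over all probe sets in both.

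Markers of other cells did not pass either. Of 15 leukocyte markers 12 were measured and 9 tested, and 0 passed in any comparison, with summed signals from 6414 to 8211 in SH SO2 rats, 7066 to 8262 in SH air rats, 7124 to 10137 in SD SO2 rats and 7219 to 8769 in SD air rats. For 7 measured macrophage and dendritic cell markers the sums were from 38840 to 45123 in SH SO2 rats, 41070.0 to 44682 in SH air rats, 40774 to 57072 in SD SO2 rats and 41646 to 44341 in SD air rats. All 9 tested leukocyte markers and all 6 tested macrophage markers had a strain difference below 0 in SO2, with medians of -0.13 and -0.10, while in air 7 of 9 and 1 of 6 were below 0. Without SD air replicate 2, 7 of 9 and 2 of 6 were below 0 in air. For SO2 against air in SD rats all 9 and all 6 were above 0, with medians of 0.12 and 0.14. Without SD air replicate 2 these were 7 of 9 and 5 of 6, with medians of 0.11 and 0.13. Heart muscle markers, of which 8 were listed, 7 measured and 5 tested, had larger differences. In SO2 all 5 were above 0 for SH against SD rats, with a median of 0.64, and all 5 were below 0 for SO2 against air in SD rats, with a median of -0.47, or -0.48 without SD air replicate 2. Their sums ran from 2200 to 3729 in SH SO2 rats, 2053.5 to 3199 in SH air rats, 1210 to 2426 in SD SO2 rats and 2013 to 3975 in SD air rats. All 3 red blood cell markers were below 0 for SH against SD rats in SO2, with a median of -0.33, and for SO2 against air in SH rats, with a median of -0.43. Of these lists and the endothelial markers, 0 genes passed in any comparison. The part of these markers in the class I values was not tested.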

How the data were processed

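Lung RNA from 16 rats was measured on 1 array each. The deposited table holds an intensity on a linear scale for each of 15923 probe sets, and the authors used GCOS, the Affymetrix software, per the submitters' processing notes (version not given in the sources used here). Mean intensities without the highest and lowest 2% were 500.1 on every array, so the scaling was kept.

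After 57 control probe sets were left out, the deposited values were taken as log2(intensity + 16), which understates changes of dim probe sets. The 30% with the lowest mean over all arrays (under 116.8) were left out. The other 11106 were fitted in R 4.3.3 by limma 3.58.1, with lmFit and eBayes (trend on), on 4 group means and 12 residual degrees of freedom. Benjamini-Hochberg adjustment covered all 11106, and the threshold was 0.05. The fit was tested on simulated data in which a probe set had the same spread in every group. The members varied more in SD than in SH rats, and the simulation does not cover that case. The number of arrays limits the precision. P-values measure the spread between rats that the labels call biological replicates.

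Probe sets were named through the platform annotation: 12783 had 1 symbol, 312 several and 2771 none here. Promoters came from RefSeq (GRCr8), and were aligned with Biopython 1.88. Correlations used exact permutation in Python 3.11.15 with numpy 2.4.6, and figures matplotlib 3.10.9.

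Named genes were every member probe set, up to 4 called genes by smallest p from each list and comparison, B2m, Tap1, Tap2, Terf2ip, and the 3 genes most like each member. A gene with several probe sets was represented by the brightest. RT1-T24-3, RT1-CE12, RT1-M3-1, RT1-S3, RT1-CE10 and RT1-Bb, and the pairs correlated among SD arrays, were chosen after their values were seen. The members and gene lists were chosen with earlier results of these data known.

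Replicate numbers follow the order of the samples, and do not pair rats: deviations of same-numbered arrays correlated at -0.26 to 0.15. Alternatives were offsets of 1 and 64, quantile normalization, median centring, no filter or 50% left out, no trend, a replicate block, only the arrays compared, and each array left out.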

Additional observations from a re-analysis of the deposited data

Results flagged for a closer look

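RT1-CE5 1388254_a_at in SH air rats held the only array that stood apart from its group by Dixon's criterion, of 40 groups of 4 checked over the 10 member probe sets. Replicate 1 had a signal of 9.7, against 17.9 to 19.5 in the other SH air rats. This probe set was below the limit for testing, and its signals were of the size of the 10th percentile of an array, 17 to 26.8. Chance alone marks about 1 group in 20.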

How the results depend on the processing

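Of 995 values of single probe sets under other settings, 978 kept their direction and, where tested, their side of the threshold, and 17 changed direction. The member probe sets that passed in the SO2 comparisons and the interaction stayed at 0 under every setting run. Over all probe sets, the strain test in air went to 5 with an offset of 64, to 1 with no filter and to 1 with no trend, from 0, and to between 0 and 90 with an array left out; the 90 came without SD air replicate 2. The strain test in SO2 gave 91, and 51 without SH SO2 replicate 3 to 116 without SD air replicate 2. With an array left out, SO2 against air gave 0 to 1 in SH rats and 0 to 3 in SD rats. With the replicate block these counts were 88 for the strain test in SO2 and 0 for the other four.

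For RT1-CE5 1371210_s_at the SO2 difference in SH rats was -0.00839 with quantile normalization and -0.037 with median centring, from 0.018. With an array left out it ran from -0.20 to 0.22, and for the same probe set SO2 in SD rats ran from -0.91 to 0.091, the interaction from -0.073 to 0.93, the strain difference in air from -0.33 to 0.23 and in SO2 from -0.14 to 0.86. For RT1-CE5 1388255_x_at the ranges were -0.062 to 0.41 for SO2 in SH rats, -1.38 to 0.066 for SO2 in SD rats and -0.29 to 1.16 for the strains in SO2. The strain difference in SO2 on RT1-CE5 1371209_at ran from -0.12 to 1.72. RT1-CE16 ran from -0.23 to 0.043 for SO2 in SH rats and from -0.062 to 1.43 for the interaction, and RT1-A from -0.22 to 1.08 for SO2 in SD rats. The causes were not tested. With 4 arrays a group, signals near the lowest of each array, as on the dim RT1-CE5 and RT1-A3 probe sets, limit what can be seen.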
